A study of Danio rerio with 12 samples.

Results

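Expression was followed in zebrafish larvae for 6 genes linked to the uptake of sterol and its movement inside cells. Of these, ldlra encodes the LDL receptor, vldlr and scarb1 other lipoprotein receptors, npc1l1 a sterol transporter and stard4 a sterol carrier. The gene mylipa encodes a ubiquitin ligase that in mammals acts on lipoprotein receptors. Members were the array probes whose RefSeq accession belongs to one of these 6 symbols. This gave 9 probes of 5 genes, out of 43603 probes in all: 1 for mylipa, 1 for ldlra, 4 for vldlr, 2 for scarb1 and 1 for stard4. All 9 passed the filter on dim signal and were among the 36737 probes tested. No probe was matched to npc1l1, which was not analysed here.

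The study exposed wild-type WIK larvae to compounds that activate the oxysterol-binding nuclear receptor LXR (liver X receptor) and measured RNA on 1-colour Agilent arrays. Treatment ran for the larvae between days 4 and 6 after fertilization, in T0901317 (2 mM as labelled), in GW3965 (1 mM as labelled) or in vehicle alone, all with 0.1% DMSO and with treatments renewed after 24 h. The doses differ between the agonists, and a lost micro sign in the labels is possible, so both are printed only as labelled. Each array held RNA of 1 pool of 30 whole larvae, and the 4 arrays deposited per group are called biological replicates in the design text. T0901317 replicate 2 was left out there and is left out here, which leaves 3 T0901317, 4 GW3965 and 4 DMSO arrays.

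In mammalian cells the LDL receptor binds lipoproteins carrying apolipoprotein B or E and brings them into the cell, where their cholesterol is released in lysosomes. When cell sterol is low, the transcription factor SREBP2 turns on the LDL receptor gene together with the genes of cholesterol synthesis. When sterol is high, oxysterols activate LXR, which turns on MYLIP (also called IDOL), and this ligase marks the LDL receptor and the VLDL receptor for degradation, so that it acts on receptor protein and not on receptor RNA. In fish and mammals the liver and the intestine are main sites of lipoprotein assembly and uptake.

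Well above background were 78.8% to 83.2% of probes on the 11 arrays, whose 75th percentiles of processed signal ranged over 332 to 390 intensity units. Each group had a slide and a scan of its own, so that an effect of slide cannot be told apart from one of treatment. Signals are given as scaled signals, in intensity units after each array was scaled to the same 75th percentile (361). Differences are given in log2 units with their standard error (SE) in a limma fit to all 11 arrays, p-values were adjusted by the Benjamini-Hochberg method across every probe tested, and a probe was called at an adjusted p under 0.05. Markers of liver, intestine, macrophages, interrenal gland, vessels, muscle and neurons were present in every group: all measured markers but 1 interrenal one were well above background on all 11 arrays, and that one was so on some arrays. The summed signal of 8 hepatocyte markers ran from 192882 to 209735 in T0901317 larvae and from 170701 to 212356 in GW3965 larvae, against 164600 to 185833 in DMSO larvae. The ranges of the sum did not overlap between T0901317 and DMSO, but the markers went different ways: with T0901317, fabp10a was called higher (0.47 in log2 units), serpina1 was at 0.19 and the other 6 were below 0, with a median of -0.13 over the 8. This call of fabp10a was kept in 8 of 20 alternative settings, and its dimmer probe was at 0.26 without a call. With GW3965, fabp10a was called higher (0.40) and cp lower (-0.40), calls kept in 8 and 14 of 20 settings. The part of liver RNA in the results was not tested. For 6 enterocyte markers the sums were 83760 to 96515 with T0901317, 92587 to 101009 with GW3965 and 79549 to 99526 with DMSO, which overlapped. For 3 endothelial markers they were 492 to 566, 549 to 590 and 455 to 499, so GW3965 lay above DMSO. All 3 were above 0 with GW3965, as were all 3 neuron markers and 58.3% of all named genes. The endothelial marker fli1 was called higher (0.30, limma adjusted p = 0.0435), a call kept in 7 of 20 alternative settings. The part of vessel RNA in the results was not tested. With GW3965, 2 of 4 macrophage and 1 of 4 muscle markers were above 0. The macrophage marker spi1b was called lower (-0.36, limma adjusted p = 0.00897), a call kept in 18 of 20 settings. The muscle marker mylpfa was also called lower (-0.28, limma adjusted p = 0.0451), kept in 5 of 20 settings. Muscle sums were 553972 to 620834 with GW3965 and 616109 to 707047 with DMSO, which overlapped. The part of macrophage and muscle RNA was not tested.

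Of the 9 probes, 2 rose with T0901317, those of mylipa and stard4, and none fell (1.42% of all probes tested were called higher in this comparison and 2.54% either way). The same 2 probes rose with GW3965 and none fell, where 1.14% of all probes were called higher and 5.38% either way. The receptor genes ldlra, vldlr and scarb1 were not called with either agonist. Both comparisons use the same 4 DMSO arrays. Over the 9 probes the median log2 fold change was 0.13 for T0901317 and 0.14 for GW3965, against 0.03 and 0.0019 over all probes tested. As 4 of the 9 probes measure vldlr, the genes do not count alike in these medians. Both medians are values of vldlr probes.

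**Figure D1:**
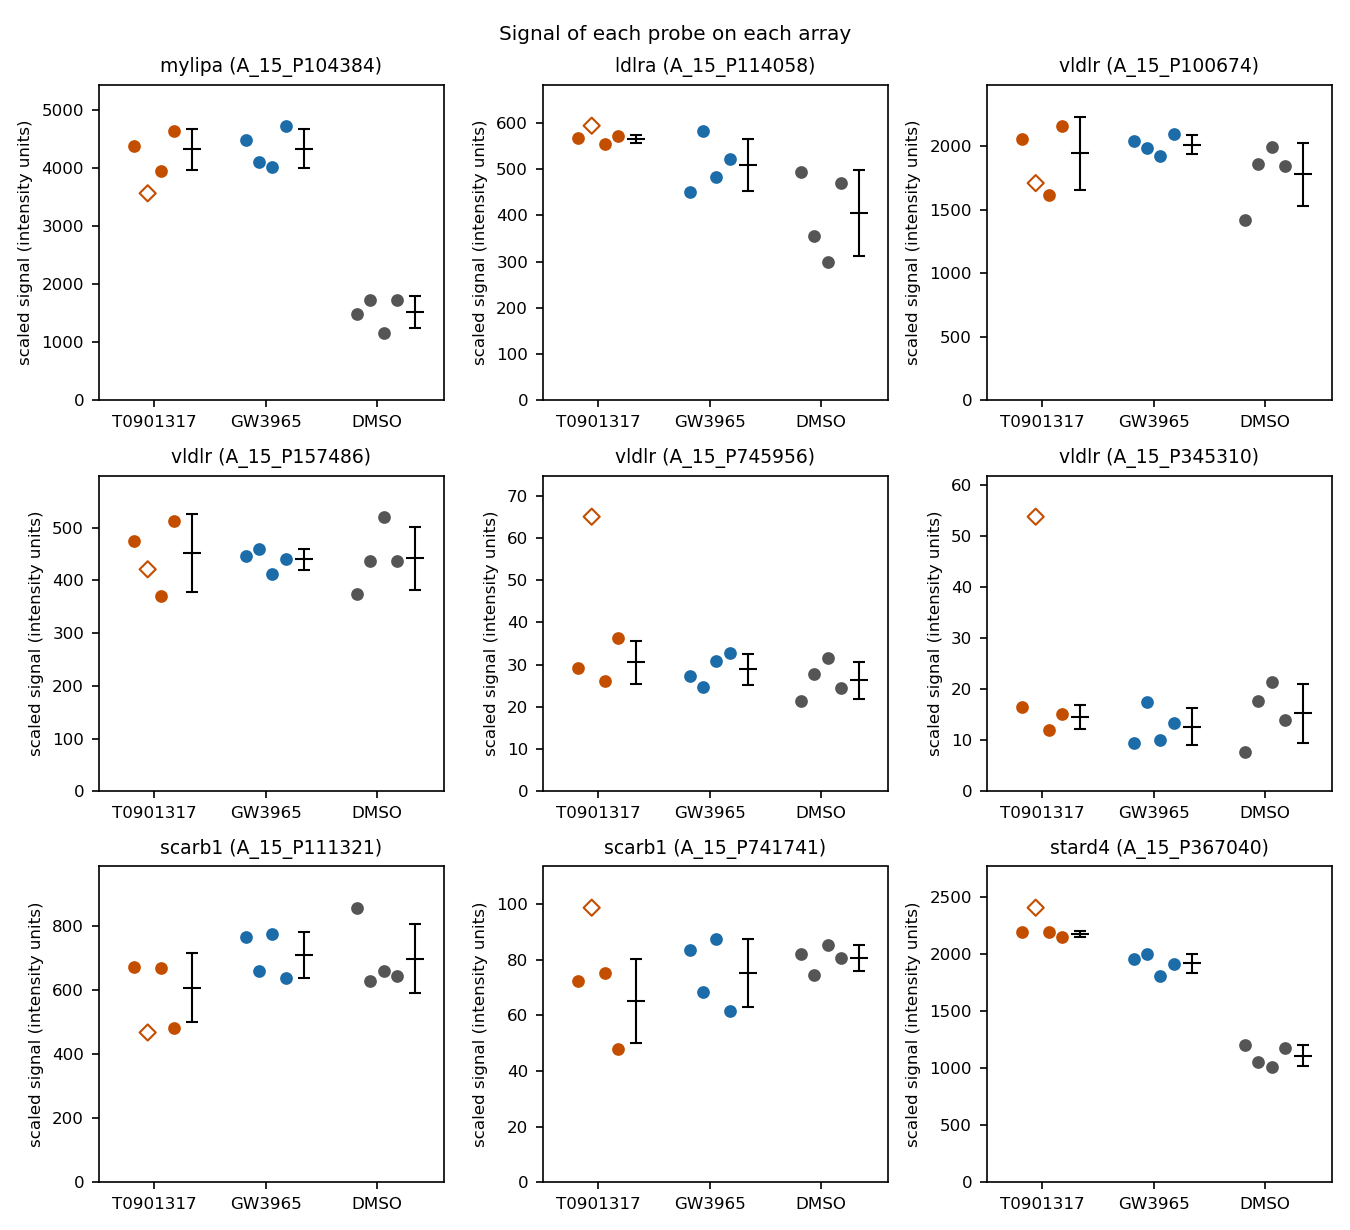
Scaled signal (vertical axes, intensity units, from 0) of the 9 probes on each array, with T0901317, GW3965 and DMSO from left to right. Filled points are arrays, bars are the mean ± SD of the arrays used, and the open diamond is T0901317 replicate 2, which is outside the mean and the fit. For mylipa and stard4 every agonist array lies above every DMSO array, while the points of the 4 vldlr and 2 scarb1 probes overlap between groups. Of all probes tested, 7.37% lie apart upward from DMSO with T0901317 and 5.49% with GW3965.

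The ubiquitin ligase gene mylipa gave scaled signals of 4368, 3946 and 4631 in T0901317 larvae and of 4475, 4106, 4022 and 4724 in GW3965 larvae, against 1491, 1722, 1153 and 1728 in DMSO larvae. Every agonist array lay above every DMSO array, and the agonist arrays lay among each other. Such upward separation from DMSO was shown by 7.37% of all probes tested for T0901317 and by 5.49% for GW3965. The means were 4315 ± 346 (SD, n = 3) with T0901317, 4332 ± 327 (n = 4) with GW3965 and 1524 ± 270 (n = 4) with DMSO. In RNA of whole larvae, a change in cell number and a change in RNA per cell cannot be told apart. This holds here and for every gene below.

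With T0901317, mylipa was 2.86-fold higher than with DMSO, with a 95% interval of 2.32 to 3.54 (log2 fold change 1.52 ± 0.14, limma adjusted p = 0.000242). With GW3965 it was 2.87-fold higher, with an interval of 2.36 to 3.50 (1.52 ± 0.13, limma adjusted p = 0.000136). By size of rise its probe stood at place 90 of the 36737 probes tested for T0901317 and at place 45 for GW3965. Within groups the spread of mylipa was ordinary: its residual SD of 0.190 on the log2 scale was at percentile 57.5 of all probes, whose median was 0.171. On the log2 scale the DMSO arrays had the widest spread, with an SD of 0.27, against 0.12 for T0901317 and 0.11 for GW3965, although in intensity units their SD was the smallest. Replicate 3 was the lowest of them. The measured group levels thus fall into an upper pair, GW3965 and T0901317, whose means differ by less than the spread of either group, and DMSO below them.

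The receptor gene ldlra, whose protein the mammalian ligase degrades, gave 568, 555 and 572 in T0901317 larvae and 450, 581, 483 and 522 in GW3965 larvae, against 494, 355, 298 and 470 in DMSO larvae. All T0901317 arrays lay above all DMSO arrays, a separation upward that 7.37% of all probes tested showed in this comparison. The GW3965 arrays overlapped the DMSO arrays, since GW3965 replicate 1 was below DMSO replicates 1 and 4. The means were 565 ± 8.77 (SD, n = 3) with T0901317, 509 ± 56.5 (n = 4) with GW3965 and 405 ± 93.3 (n = 4) with DMSO.

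The log2 fold change of ldlra was 0.51 ± 0.16 for T0901317, with a 95% interval of 0.15 to 0.87, and did not pass the threshold over all probes (limma unadjusted p = 0.0100, adjusted p = 0.159). For GW3965 it was 0.36 ± 0.15, with an interval of 0.02 to 0.69 (limma unadjusted p = 0.0399, adjusted p = 0.236). Both intervals for this single probe lie above 0, and neither value withstood adjustment for the number of probes. The spread between DMSO arrays was the widest of the groups: their SD was 0.34 on the log2 scale, against 0.02 among T0901317 arrays and 0.16 among GW3965 arrays. Leaving out DMSO replicate 3, the lowest array, gave 0.38 for T0901317 and 0.22 for GW3965, and leaving out DMSO replicate 1, the highest, gave 0.62 and 0.46, without a call in any of these fits (limma adjusted p 0.0774 to 0.463).

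The vldlr gene encodes a receptor for triglyceride-rich lipoproteins and reelin, and 4 probes measured it. The brightest, A_15_P100674, gave 2056, 1619 and 2162 in T0901317 larvae and 2042, 1990, 1928 and 2096 in GW3965 larvae, against 1419, 1860, 1992 and 1841 in DMSO larvae. The groups overlapped, and DMSO replicate 1 was the lowest array. Its log2 fold change was 0.13 ± 0.13 for T0901317, with an interval of -0.16 to 0.42 (limma adjusted p = 0.752), and 0.19 ± 0.12 for GW3965, with an interval of -0.08 to 0.46 (limma adjusted p = 0.446). As changes in level these intervals run from -10.3% to 33.6% with T0901317 and from -5.11% to 37.2% with GW3965, so a change of the size seen for mylipa lies outside them.

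The second vldlr probe, A_15_P157486, gave 476, 370 and 512 in T0901317 larvae and 446, 459, 412 and 442 in GW3965 larvae, against 374, 436, 521 and 437 in DMSO larvae. Its differences were 0.03 ± 0.13 and 0.0016 ± 0.12 in log2 units. The third, A_15_P745956, was dimmer, with 29.1, 26.2 and 36.2 in T0901317 larvae and 27.3, 24.6, 31.0 and 32.7 in GW3965 larvae, against 21.4, 27.7, 31.6 and 24.6 in DMSO larvae. Its differences were 0.22 ± 0.16 and 0.14 ± 0.15, and the groups overlapped for both probes.

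The dimmest vldlr probe, A_15_P345310, gave 16.5, 11.9 and 15.1 in T0901317 larvae and 9.55, 17.5, 10.1 and 13.5 in GW3965 larvae, against 7.80, 17.8, 21.5 and 14.0 in DMSO larvae. It was well above background on 3 of 3 T0901317, 2 of 4 GW3965 and 3 of 4 DMSO arrays, and its residual SD was at percentile 94.5 of all probes, so its interval for T0901317, from -0.69 to 0.71, says little about size. The 4 probes share a target, and their lowest arrays were shared in 2 of the 3 groups. T0901317 replicate 3 was the lowest T0901317 array and DMSO replicate 1 the lowest DMSO array for each of them. The lowest GW3965 array was replicate 3 for A_15_P100674 and A_15_P157486, replicate 2 for A_15_P745956 and replicate 1 for A_15_P345310. No vldlr probe was called in any comparison.

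The scarb1 gene encodes the scavenger receptor that takes cholesteryl esters from high-density lipoprotein, and 2 probes measured it. The brighter, A_15_P111321, gave 674, 668 and 483 in T0901317 larvae and 765, 660, 776 and 637 in GW3965 larvae, against 858, 630, 661 and 645 in DMSO larvae. DMSO replicate 1 was the highest array and T0901317 replicate 4 the lowest, and all groups overlapped. Its log2 fold change was -0.20 ± 0.15 for T0901317 (interval -0.53 to 0.12, limma adjusted p = 0.623) and 0.03 ± 0.14 for GW3965 (interval -0.27 to 0.33, limma adjusted p = 0.939).

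The dimmer scarb1 probe, A_15_P741741, gave 72.3, 75.1 and 47.8 in T0901317 larvae and 83.5, 68.6, 87.5 and 61.6 in GW3965 larvae, against 82.1, 74.4, 85.3 and 80.7 in DMSO larvae. T0901317 replicate 4 was again the lowest array, and the groups overlapped. Its differences were -0.34 ± 0.17 for T0901317 (interval -0.71 to 0.03, limma adjusted p = 0.407) and -0.11 ± 0.16 for GW3965 (limma adjusted p = 0.765). Both scarb1 probes had their lowest mean with T0901317, and neither passed the test.

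The sterol carrier gene stard4 encodes a soluble protein that moves cholesterol between membranes, and in mouse it is known as a gene that SREBP2 turns on. Its probe gave 2191, 2192 and 2149 in T0901317 larvae and 1956, 2004, 1806 and 1909 in GW3965 larvae, against 1201, 1052, 1010 and 1174 in DMSO larvae. No group overlapped another: every T0901317 array lay above every GW3965 array, and every GW3965 array above every DMSO array. Upward separation from DMSO was shown by 7.37% of all probes for T0901317 and by 5.49% for GW3965. The means were 2177 ± 24.3 (SD, n = 3) with T0901317, 1919 ± 84.6 (n = 4) with GW3965 and 1109 ± 92.8 (n = 4) with DMSO.

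With T0901317, stard4 was 1.97-fold higher than with DMSO, with a 95% interval of 1.74 to 2.23 (log2 fold change 0.98 ± 0.08, limma adjusted p = 0.000124). With GW3965 it was 1.73-fold higher, with an interval of 1.54 to 1.95 (0.79 ± 0.08, limma adjusted p = 0.000295). Replicates of stard4 lay close together: its residual SD of 0.0844 on the log2 scale was at percentile 8.28 of all probes. By p-value its probe was therefore at place 45 of all probes tested for T0901317, ahead of mylipa at place 53, although by size of rise it was only at place 304. For GW3965 the order by p-value was the other way, with mylipa at place 42 and stard4 at place 69.

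**Figure D2:**
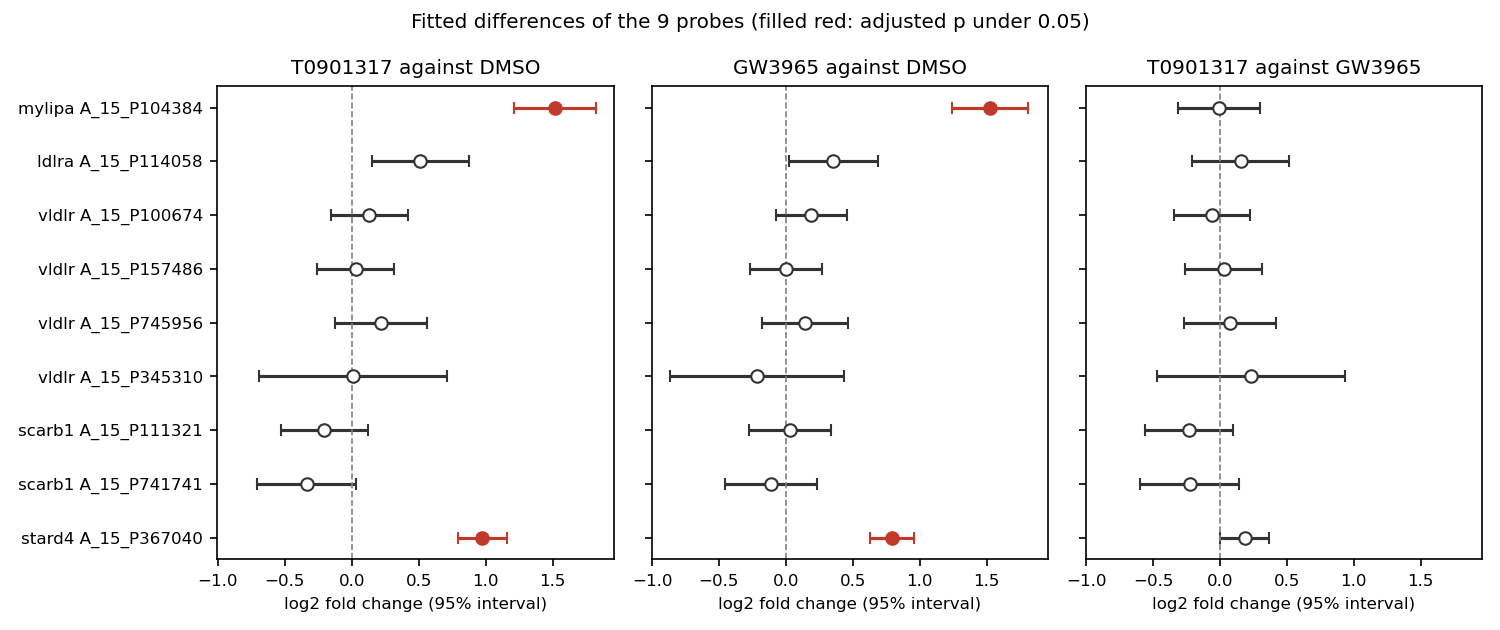
Log2 fold change (horizontal axis) of the 9 probes with its 95% interval, in panels for each agonist against DMSO and for T0901317 against GW3965. Filled red points are called at an adjusted p under 0.05. The points of mylipa (1.52 and 1.52) and stard4 (0.98 and 0.79) stand apart from 0 in the panels against DMSO, and no point is filled in the panel between the agonists.

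Set against each other, the agonists differed for none of the 9 probes after adjustment. With 4.4% of all probes tested called in this comparison, a lack of calls among 9 probes says little about them. The labelled doses differ, so the values are no comparison at matched dose. For mylipa the difference of T0901317 from GW3965 was -0.0056 ± 0.14, with an interval of -0.31 to 0.30 (limma adjusted p = 0.995). As a change in level that interval runs from -19.4% to 23.1%. Within the 3 replicate numbers that the agonists share, mylipa was slightly lower with T0901317 in all 3. How many of all probes went the same way in all 3 was not counted. The labels do not say what arrays of the same replicate number share. With that number as a block in the fit to all 11 arrays, DMSO included, the difference was 0.015 ± 0.11 (limma adjusted p = 0.975). For ldlra the difference was 0.16 ± 0.16, with an interval of -0.21 to 0.52 (limma adjusted p = 0.819), and T0901317 was higher in 3 of 3 shared numbers.

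For stard4 the signal was 0.18 ± 0.08 higher in log2 units with T0901317 than with GW3965, with an interval of 0.0024 to 0.36 (limma unadjusted p = 0.0475, adjusted p = 0.396). Its arrays did not overlap, as was so in the upward direction for 9.46% of all probes. For the brightest vldlr probe the difference was -0.06, with an interval of -0.35 to 0.23. For the scarb1 probes it was -0.23 ± 0.15 and -0.22 ± 0.17, with intervals of -0.56 to 0.09 and -0.59 to 0.14. None of these 3 differences passed the test. Both scarb1 probes, which measure the same transcript on the same arrays, were lower with T0901317 in 3 of 3 shared numbers. The probe of stard4 and vldlr probe A_15_P345310 were higher in 3 of 3. With the block the scarb1 probes were at -0.27 ± 0.10 and -0.26 ± 0.12, again without a call (limma adjusted p = 0.264 and 0.373).

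Other genes of lipoprotein uptake were counted by list, with the brightest probe standing for each gene. Across the 12097 named genes tested, 1.26% were called higher and 0.967% lower with T0901317, 1.36% higher and 3.2% lower with GW3965, and 2.79% higher and 0.132% lower with T0901317 against GW3965. The median log2 fold change over these genes was 0.03 for T0901317 and 0.04 for GW3965.

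Of 26 genes listed as other LDL receptor family members and their endocytic partners, 13 were measured. With T0901317 none of the 13 was called, and their median log2 fold change was 0.03. With 1.26% of all named genes called higher and 0.967% lower in this comparison, this lack of calls says little about them. With GW3965 none rose and 2 fell, with a median of -0.05: lrp6, the Wnt co-receptor, by 0.94 ± 0.16 (limma adjusted p = 0.00759) and the family member lrp3 by 0.45 ± 0.09 (limma adjusted p = 0.0189). Under normexp background correction with an offset of 50 both calls ended, at -0.31 for lrp6 (limma adjusted p = 0.0622) and -0.24 for lrp3 (0.0605). The call of lrp3 also ended without DMSO replicate 3 or 4, without GW3965 replicate 3 or 4 and with T0901317 replicate 2 put back (highest limma adjusted p = 0.0679).

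Between the agonists, lrp6 was 1.60 ± 0.18 higher with T0901317 than with GW3965 (limma adjusted p = 0.000425) and lrp3 0.77 ± 0.10 higher (0.00111). Both calls were kept in all 20 alternative settings, though at 0.63 and 0.47 with normexp. With T0901317 against DMSO, lrp6 was at 0.66 ± 0.18 and lrp3 at 0.32 ± 0.10 in log2 units, neither of them called. The endocytic adaptors ldlrap1a, ldlrap1b and dab2 and the receptor chaperone lrpap1 were not called in any comparison. They were named after their values were seen, and a lack of calls among so few genes says little about them. The genes ldlrb and lrp8 had no matched probe and were not analysed here.

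Genes whose mammalian counterparts work with the MYLIP ligase, the ubiquitin-conjugating enzymes of the UBE2D family and the deubiquitinase USP2, were measured for 6 of the 9 genes listed. None was called with either agonist. Of all named genes 1.26% were called higher with T0901317 and 1.36% with GW3965, so a lack of calls among 6 genes says little about them. Their median log2 fold change was 0.12 for T0901317 and 0.11 for GW3965, and the largest single value was 0.25 ± 0.08 for ube2d1b with GW3965 (limma adjusted p = 0.111). The paralog mylipb had no matched probe and was not analysed here.

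Among scavenger receptors and their partners, 6 of 12 listed genes were measured and 1 rose with each agonist. This was scarb2a, whose mammalian counterpart LIMP-2 is a lysosomal membrane protein, at 0.70 ± 0.12 with T0901317 (limma adjusted p = 0.0109) and 0.46 ± 0.11 with GW3965 (0.0336). The second scarb2a probe was also called with both agonists, at 0.68 and 0.46. With normexp the brighter probe was at 0.45 and 0.28. The GW3965 call of the brighter probe ended in 9 of 20 alternative settings, among them without DMSO replicate 1, 2 or 4 and without GW3965 replicate 1, 2 or 4 (highest limma adjusted p = 0.0892). The fatty acid receptor gene cd36 was at -0.36 ± 0.15 with T0901317 and was not called (limma adjusted p = 0.289).

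In the list of intestinal sterol handling, 9 of 12 genes were measured. With T0901317 the lipoprotein gene apobb.1 fell by 0.68 ± 0.11 (limma adjusted p = 0.00813) and the sterol esterifying enzyme gene soat1 rose by 0.59 ± 0.13 (0.0354), while none of the 9 was called with GW3965. The call of soat1 ended in 7 of 20 alternative settings, among them without DMSO replicate 2 or 3, T0901317 replicate 3 or 4, or GW3965 replicate 3 (highest limma adjusted p = 0.125), and its second, dim probe had the opposite sign. Of the 6 enterocyte markers, 2 were above 0 and 4 below with T0901317, with a median of -0.22, and only apoa4b.1 was called, at -0.54, a call that ended when only these 2 groups were fitted (limma adjusted p = 0.0504). The part of intestinal RNA in the fall of apobb.1 was not tested. Between the agonists 1 gene of this list was called higher, the endocytic adaptor gene numb (0.98 ± 0.21, limma adjusted p = 0.0226), but not with the replicate number as a block (0.0651). With normexp numb was at 0.28 (0.107), and its call also ended with quantile normalization and without T0901317 replicate 1 or 4 or GW3965 replicate 1, 3 or 4, so that it held in 12 of 20 settings.

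Other sterol transfer proteins and genes of lysosomal sterol release were counted in the same way. Of the 24 listed, 11 were measured, among them the START domain genes star, stard3 and stard10 and the lysosomal sterol binding protein gene npc2.1, and none was called in any of the 3 comparisons. With 1.26% and 1.36% of all named genes called higher with the agonists, a lack of calls among 11 genes says little about them. Their median log2 fold change was 0.05 for T0901317 and 0.19 for GW3965, against 0.03 and 0.04 over all named genes. With each agonist 8 of the 11 were above 0, as were 58.0% and 58.3% of all named genes. The stard4 values were 0.98 and 0.79.

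**Figure D3:**
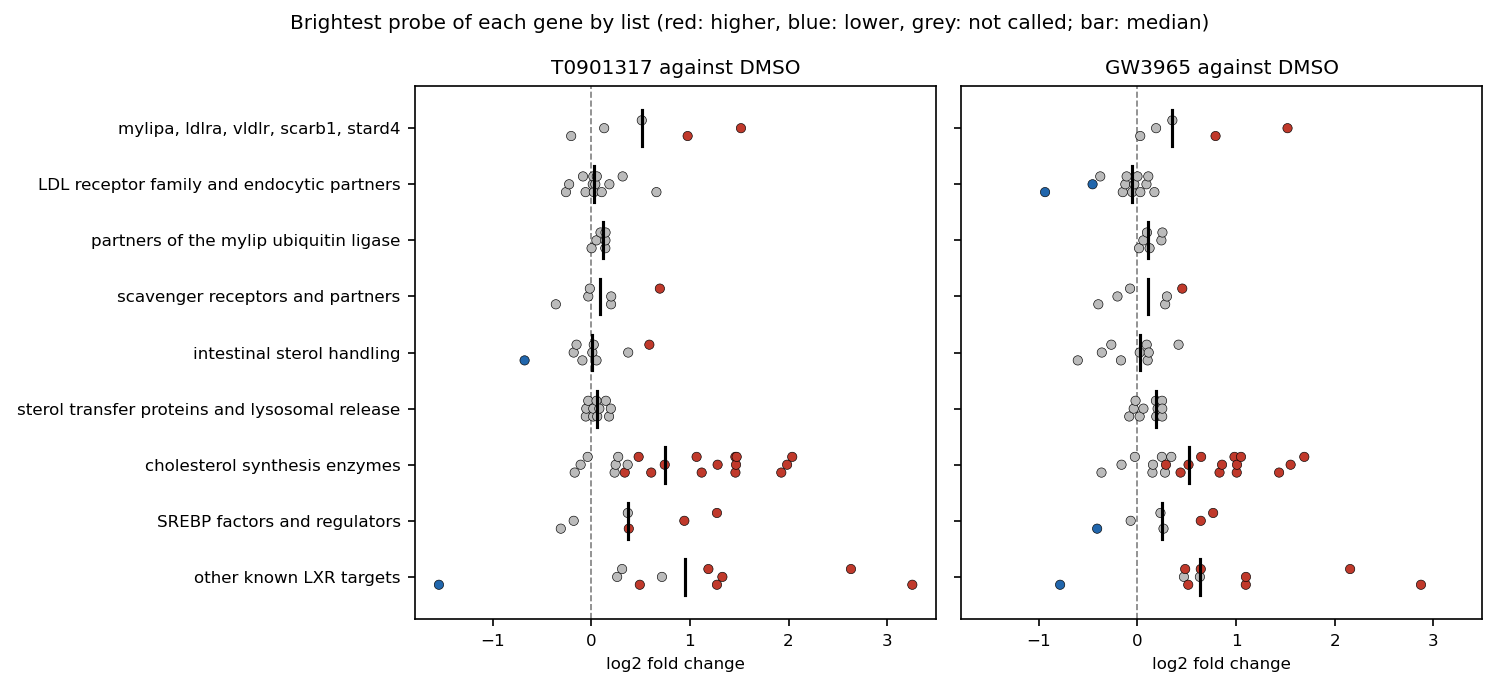
Log2 fold change (horizontal axes) of the brightest probe of each measured gene, by list, for T0901317 against DMSO and GW3965 against DMSO. Red points were called higher, blue points lower and grey points neither, and the black bar is the median of a list. In the cholesterol synthesis list 18 of 21 points lie to the right of 0 in each panel (medians 0.74 and 0.52), while the 11 measured sterol transfer genes and the 6 ligase partners hold no coloured point.

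The genes of cholesterol synthesis, which share sterol control with the LDL receptor gene in mammals, were the list with the most called members by number. The lists differ in size, and by share of measured genes called either way the other LXR targets below had more. Of 21 measured of 23 listed, 14 rose with T0901317 and 13 with GW3965, none fell, and the median log2 fold changes were 0.74 and 0.52. The call was kept in every alternative setting by 10 of the 14 and by 8 of the 13. Examples were the oxidosqualene cyclase gene lss, at 1.99 ± 0.21 with T0901317 (limma adjusted p = 0.000617) and 1.55 ± 0.19 with GW3965 (0.00117), and the squalene epoxidase gene sqlea, at 1.93 ± 0.18 (0.000277) and 1.44 ± 0.17 (0.000873). With normexp these values were smaller, at 1.01 and 0.75 for lss and 0.69 and 0.43 for sqlea, and both genes were still called with both agonists. The gene of the list with the smallest p was hmgcra, at 2.04 ± 0.15 with T0901317 (limma adjusted p = 3.86e-05) and 1.69 ± 0.14 with GW3965 (0.000103). With normexp hmgcra was at 1.61 and 1.28. Against these, the ldlra values of 0.51 and 0.36 were below the medians of the list.

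Of 6 measured SREBP factors and regulators, 3 rose with T0901317, and with GW3965 2 rose and 1 fell. The gene insig1, whose protein holds SREBP precursors in the endoplasmic reticulum, rose by 0.94 ± 0.10 with T0901317 (limma adjusted p = 0.000717) and by 0.77 ± 0.09 with GW3965 (0.00107). The gene srebf2, which encodes SREBP2, was at 0.38 ± 0.09 with T0901317 (limma adjusted p = 0.0464), a call of its brightest probe that ended on leaving out any 1 of the 11 arrays and held in only 3 of 20 alternative settings. A dimmer srebf2 probe, A_15_P758926, was called higher with both agonists, at 0.80 ± 0.12 with T0901317 (limma adjusted p = 0.00570) and 0.66 ± 0.11 with GW3965 (0.00558), and the third, A_15_P402025, was at 0.84 and 0.41 without a call. The lipogenic factor gene srebf1 rose by 1.27 ± 0.14 with T0901317 and by 0.64 ± 0.13 with GW3965, and the gene of the SREBP protease mbtps2 fell by 0.41 ± 0.09 with GW3965 (limma adjusted p = 0.0320), a call that ended in 7 of 20 settings, among them without any 1 of the DMSO arrays and without GW3965 replicate 2 or 4 (highest limma adjusted p = 0.0848). Its second probe was also called lower with GW3965 (-0.45 ± 0.09). Of 10 measured other LXR targets, 6 rose and 1 fell with T0901317, and 7 rose and 1 fell with GW3965. This list counts srebf1 again. The gene that fell was apoea, 1 of 2 apolipoprotein E genes measured. The other, apoeb, was called higher with GW3965 (0.52 ± 0.09, limma adjusted p = 0.00583). With T0901317 its brightest probe was at 0.31 ± 0.09 without a call (limma adjusted p = 0.122), though some of its other probes were called higher. The medians of the list were 0.95 and 0.64. The mylipa value of 1.52 was above both of these medians. Between the agonists, apoea was lower with T0901317 than with GW3965 (-0.76 ± 0.08, limma adjusted p = 0.000460), a call kept in all 20 settings. Higher with T0901317 were srebf1 (0.63 ± 0.14, limma adjusted p = 0.0221) and the synthesis gene sc5d (0.48 ± 0.11, 0.0366). These 2 calls were kept in 16 and 11 of 20 settings, and the second probes, at 0.05 and 0.51, were not called.

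For the members that were called, the named genes with the most similar pattern were found by the root mean square (RMS) difference of log2 signals over the 11 arrays, each centred on its own mean, among 11437 genes. For mylipa these were the acyl-CoA synthetase gene acsl4a (RMS difference 0.112), the endothelial lipase gene lipg (0.165) and the melatonin synthesis gene aanat2 (0.212). Their log2 fold changes were 1.44, 1.61 and 1.81 with T0901317 and 1.40, 1.68 and 1.78 with GW3965, so all 3 were, like mylipa, nearly as high with one agonist as with the other. For stard4 they were the cytochrome c oxidase subunit gene cox6a2 (0.0983), insig1 (0.107) and the sulfotransferase gene sult2st1 (0.121). Their log2 fold changes were 1.06, 0.94 and 0.82 with T0901317 and 0.73, 0.77 and 0.70 with GW3965. These genes were picked for likeness on the same arrays, so their values are a description.

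**Figure D4:**
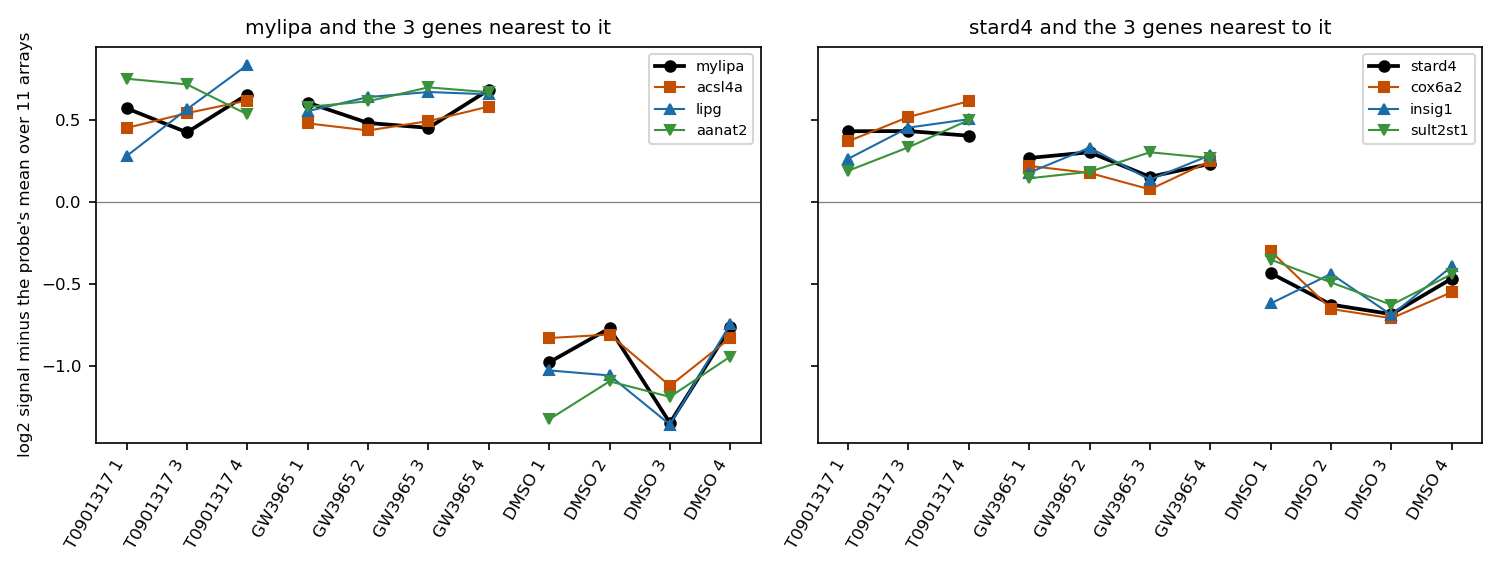
Log2 signal minus the probe's own mean over the 11 arrays (vertical axis) on each array (horizontal axis, grouped as T0901317, GW3965 and DMSO), for mylipa and stard4 in black and the 3 genes nearest to each in colour. Lines only help to follow a gene within a group. All 8 lines lie above 0 on the agonist arrays and below 0 on the DMSO arrays, and DMSO replicate 3 is the lowest array of mylipa, acsl4a and lipg.

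Changes in processing moved the called members little. Over 20 alternative settings, the log2 fold change of mylipa ran from 1.39 to 1.58 with T0901317 and from 1.40 to 1.59 with GW3965, and that of stard4 from 0.93 to 1.02 and from 0.74 to 0.83, with a call in each of the 20. For ldlra the values ran from 0.38 to 0.62 with T0901317 and from 0.22 to 0.46 with GW3965, without a call in any of them.

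**Figure D5:**
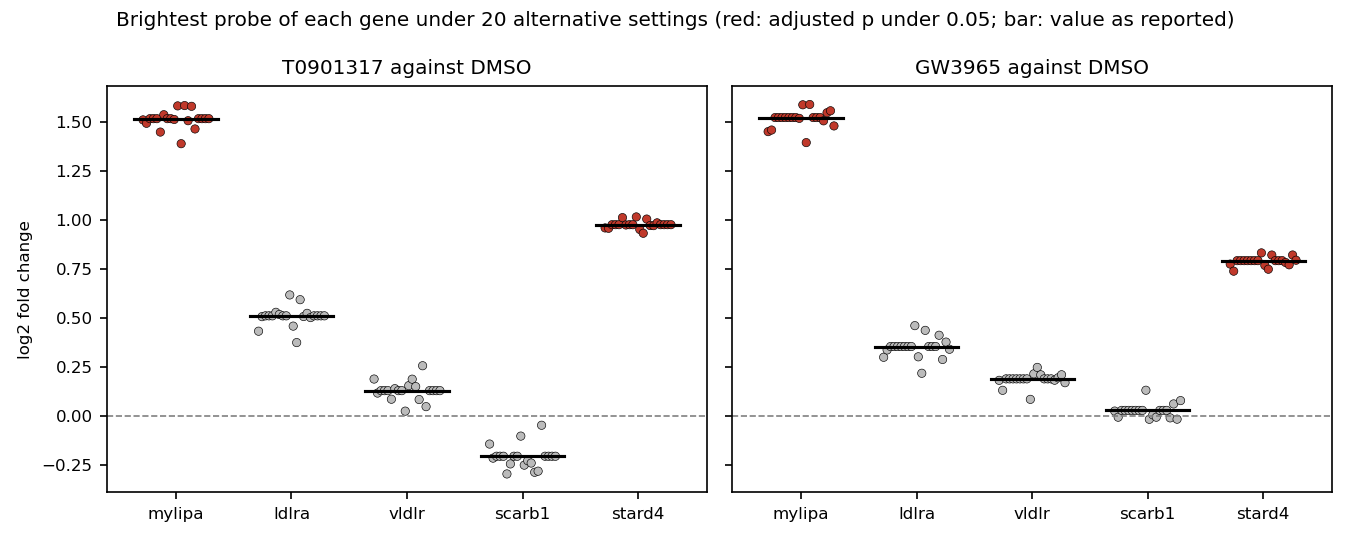
Log2 fold change (vertical axis) of the brightest probe of each gene under 20 alternative settings, one point each, for T0901317 against DMSO and GW3965 against DMSO. Red points have an adjusted p under 0.05, grey points do not, and the black bar is the value reported. All points of mylipa and stard4 are red, and all points of ldlra, vldlr and scarb1 are grey.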

How the data were processed

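Per the file headers, the authors read the scans with Feature Extraction 11.0.1.1 (Agilent), and the deposited intensity values are background-subtracted processed signals that were not scaled across arrays. The intensities of the series table were equal to them (largest log2 difference 0 on all 12 arrays). Spots marked non-uniform or as population outliers were left out and spots of a probe averaged. Probes were named through RefSeq accessions with the gene table of GRCz12tu, used for names only, since the headers give zv8 as the design build; 25069 of 43603 probes were named. Log2 processed signals were scaled to the 75th percentile of their array. Probes well above background on at least 3 of 11 arrays entered 1 limma 3.58.1 fit (R 4.3.3; lmFit, eBayes; degrees of freedom 8 residual, 2.80 prior), with no covariates. Adjusted p-values are Benjamini-Hochberg over 36737 probes.

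Members and lists were chosen with earlier results of these data known. Named besides the members are called list genes, up to 4 genes of a list with the smallest p, and the 3 genes nearest each called member; ldlrap1a, ldlrap1b, dab2, lrpap1, star, stard3, stard10 and npc2.1 were named after their values were seen. The fit was tested on simulated data for T0901317 against DMSO. It recovered 24% of probes changed by 0.5 log2 units, 80% of those changed by 1 and 90% of those changed by 2, with 3 false calls. Of 36737 simulated probes 200 were changed, fewer than the 932 called in the data, so recovery in the data can differ. In this simulation most probes changed by 0.5 log2 units were missed. The changed probes were drawn at random, each kept its own spread, and noise was independent between arrays. Their recovery is thus not that of ldlra, whose residual SD was at percentile 70.8 of all probes. Deviations from the group means correlated above 0.1 between arrays of equal replicate number in 3 of 3 pairs between the agonists (r 0.164 to 0.537). They did so in 2 of 3 pairs between T0901317 and DMSO (r 0.064 to 0.503) and 3 of 4 between GW3965 and DMSO (r 0.041 to 0.419). Only between the agonists did every pair pass 0.1, so only there were the numbers taken to pair arrays. The ranges of r overlap between the comparisons, so this choice rests on the cut at 0.1. All values come from the fit without this block unless the block is named. The number of arrays limits precision. Alternatives were normexp with an offset of 50, quantile normalization, no filter, a filter on all arrays, the brightest probe per gene, T0901317 replicate 2 put back, the replicate number as a block, fits of 2 groups alone, robust eBayes with a trend, and leaving out each array.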

Additional observations from a re-analysis of the deposited data

Results flagged for a closer look

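The array left out in the design text, T0901317 replicate 2, was also read for the members, outside every mean and test. Its log2 signal lay above the highest DMSO array by 1.04 for mylipa, by 1.00 for stard4 and by 0.26 for ldlra. Set against the other T0901317 arrays, its scaled signal was below their range for mylipa (3562) and above it for stard4 (2406) and ldlra (594). For 3 dim probes it lay above every other array: by 1.04 over the highest DMSO array for vldlr probe A_15_P745956, by 1.32 for vldlr probe A_15_P345310 and by 0.21 for scarb1 probe A_15_P741741. On that array 89.8% of probes were well above background, against 78.8% to 83.2% on the others. The brighter vldlr and scarb1 probes did not share this height.

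For the brighter scarb1 probe, A_15_P111321, DMSO replicate 1 stood apart from the other 3 DMSO arrays: its gap to the nearest of them was 0.846 of the whole range, which is past Dixon's 95% limit. Among the 18 groups of 4 arrays examined, chance gives about 1 in 20 of this kind.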

How the results depend on the processing

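Under all 20 alternative settings the number of member probes called was 2 for T0901317, 2 for GW3965 and 0 between the agonists, and none of the called values changed sign. Sign changes occurred only among values that were not called. Against DMSO, quantile normalization gave -0.068 for vldlr A_15_P345310 with T0901317, and -0.0098 for vldlr A_15_P157486 and -0.0052 for scarb1 A_15_P111321 with GW3965, where normexp gave 0.013 for vldlr A_15_P345310 and -0.0028 for vldlr A_15_P745956. Between the agonists, mylipa was at 0.060 with normexp, 0.034 with quantile normalization and 0.015 with the replicate block, vldlr A_15_P100674 at 0.0066 with normexp and vldlr A_15_P745956 at -0.080 with quantile normalization. The cause was not tested.

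On leaving out each array, vldlr A_15_P157486 ran from -0.066 to 0.17 for T0901317 and from -0.075 to 0.084 for GW3965 against DMSO, and from -0.067 to 0.17 between the agonists. Against DMSO, vldlr A_15_P345310 ran from -0.28 to 0.21 with T0901317 and scarb1 A_15_P111321 from -0.016 to 0.13 with GW3965. Between the agonists, mylipa ran from -0.058 to 0.057, vldlr A_15_P100674 from -0.14 to 0.067 and vldlr A_15_P745956 from -0.056 to 0.18. The replicate block changed no call of a member. A slide block could not be fitted, since each of the 3 slides holds 1 group. With 3 or 4 arrays a group and dim probes among the members, small changes of ldlra, vldlr and scarb1 could easily have been missed.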
